A study of Drosophila melanogaster with 8 samples.

Results

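The genes described are the cytochrome P450 genes of Drosophila melanogaster, measured in ovary RNA. Genes were taken whose current symbol is Cyp followed by a digit and that had a probe set naming no other gene, with the brightest probe set by mean over 8 arrays standing for each gene. This gave 83 of the 11982 genes measured by such a probe set, carried by 85 probe sets. Of the 83, Cyp1 and Cyp40 are cyclophilins, enzymes that turn proline bonds in proteins, whose symbols share 3 letters with the P450 genes. They were set aside, which left 81 P450 genes. On all 8 arrays Cyp1 lay between 13.60 and 13.71 and Cyp40 between 9.05 and 10.16. The reference gene table held 87 such symbols, and Cyp12d1-p, Cyp9f3, Cyp6a15Psi and Cyp6t2Psi had no probe set of their own.

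The study asked how loss of Otefin (Ote), a LEM domain protein of the nuclear lamina, changed ovarian RNA, in siblings with and without a wild-type ote copy. Null ovaries (4 samples) carried an ote mutation on both second chromosomes, labelled otefinPk and otefinG, and het ovaries (4 samples) carried otefinPk over the balancer CyO, which has wild-type ote. All 8 samples also carried 1 mutant chk2 allele and 1 wild-type copy. In each label, replicates 1 and 2 had the allele Chk2P30 and replicates 3 and 4 had Chk2P6. The labels place otefinPk on both chk2 mutant chromosomes, while the study's methods place the other ote allele on the P30 chromosome, so the P6 and P30 backgrounds may differ at ote too. Females were virgins of 4 to 6 h after eclosion by the labels and 1 day old by the methods. Each sample pooled 100 ovary pairs and was hybridised to 1 Affymetrix Drosophila 2.0 array. The CyO balancer makes null and het differ along the whole of chromosome 2, where 46 of the 81 P450 genes lie. Because whole ovaries were measured, fewer cells of a type and less RNA per cell cannot be told apart.

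Ote itself read 7.58, 7.48, 8.56 and 8.66 on null arrays 1 to 4 and 9.26, 7.27, 9.66 and 9.29 on het arrays 1 to 4 (log2 signal). No array was lower at Ote than the one labelled het 2, which so went against its label. The array labelled null 4 lay among the het arrays at several P450 genes. Results are therefore given with all arrays and again without these 2, a choice made with the values known. Any 2 arrays correlated at r = 0.957 to 0.990 over all probe sets. The number of arrays limits the precision, and nothing in the labels ties same-numbered samples to a shared day or batch. The methods call the 2 samples of each genotype biological replicates without saying whether they came from separate cultures, so p-values measure the spread between these samples only. Germline markers such as vas and osk (7 measured) and follicle cell markers (7 measured) were above background on every array.

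Cytochrome P450 enzymes are heme proteins that insert oxygen into lipids, hormones and foreign chemicals, using electrons passed on by reductases or, in mitochondria, by ferredoxins. Insect P450 genes fall into the clans CYP2, CYP3, CYP4 and mitochondrial. Members of the CYP3 clan are best known for breaking down insecticides and plant toxins, many CYP4 members act on fatty acids and hydrocarbons, and members of the CYP2 and mitochondrial clans include enzymes that make or inactivate the steroid hormone ecdysone, which the ovary also produces. Gut, Malpighian tubule and fat body are the tissues best known for detoxifying P450 enzymes.

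Signals are log2 values after RMA (robust multi-array average), so 1 unit is a 2-fold change. Signals of different probe sets are not amounts and only their order is described. A gene was counted as above background on an array where it exceeded the 95th percentile of 165 odorant, gustatory and ionotropic receptor genes on that array. That level lay between 5.06 and 5.31. By this measure 45 of the 81 P450 genes (55.6%) were above background on all 8 arrays, 19 on 1 to 7 arrays and 17 (21.0%) on none. Among all 11982 genes 61.4% were above background on every array and 25.8% on none. The mitochondrial clan was above background on all arrays for 7 of 8 genes, the CYP2 clan for 3 of 4, the CYP3 clan for 25 of 37 and the CYP4 clan for 10 of 32. Within these clans, family 6 reached 18 of 23 genes and family 4 reached 7 of 22. By chromosome arm the counts were 21 of 33 on 2R, 10 of 14 on X, 10 of 15 on 3R, 2 of 6 on 3L and 2 of 13 on 2L. Clans and arms overlap, since much of family 6 sits on 2R.

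**Figure D1:**
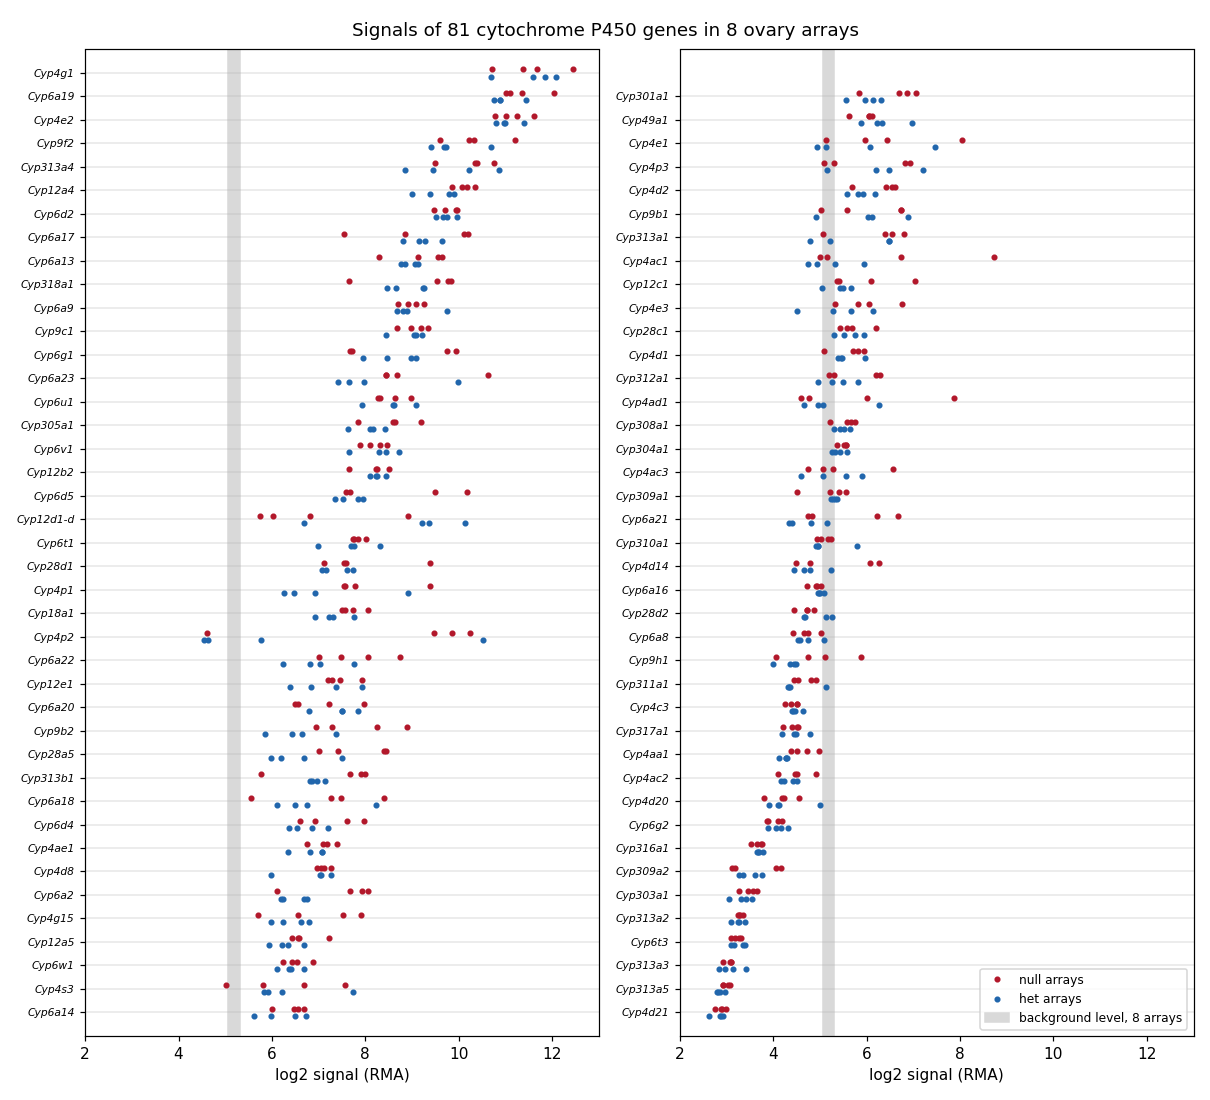
Log2 RMA signal (horizontal axis) of each of the 81 P450 genes, ordered by mean over 8 arrays from the top of the left panel to the bottom of the right one. Each red point is 1 null array and each blue point 1 het array, and the grey band spans the background level of the 8 arrays (5.06 to 5.31). Cyp4g1 leads at a mean of 11.55, and 17 genes near the foot of the right panel stayed below the background level on every array.

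The highest mean signal belonged to Cyp4g1, the oenocyte enzyme that makes cuticular hydrocarbons from long aldehydes, at the 92.8th percentile of all genes. It read 11.39, 12.45, 11.68 and 10.71 on null arrays and 10.69, 11.85, 11.59 and 12.08 on het arrays. The labels overlapped fully, with means of 11.56 ± 0.72 in null and 11.55 ± 0.61 in het ovaries (SD, n = 4 each). Markers of oenocytes, the abdominal cells that make these hydrocarbons, were also present, with 3 of 3 above background on every array. Of them eloF read 6.25, 9.95, 6.26 and 6.91 on null arrays and 5.64, 7.69, 5.59 and 6.07 on het arrays. It was the 1 of the 3 with the higher mean in null ovaries, while FASN2 differed by -0.02 and FASN3 by -0.41 and FASN2 was low on null 2 (5.93). How much of the Cyp4g1 signal came from tissue attached to the ovaries was not tested. Its paralog Cyp4g15, known from the nervous system, was weaker and ranged between 5.70 and 7.91 across the 8 arrays.

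Next in order came Cyp6a19 (mean 11.19), Cyp4e2 (11.10), Cyp9f2 (10.11), Cyp313a4 (10.04), Cyp12a4 (9.82), Cyp6d2 (9.74), Cyp6a17 (9.20), Cyp6a13 (9.05) and Cyp318a1 (9.05). The first pair were among the steadier of the 10 brightest genes, Cyp6a19 lying between 10.76 and 12.04 and Cyp4e2 between 10.79 and 11.62. Cyp6d2, known for breakdown of the topoisomerase inhibitor camptothecin, was the steadiest of the 10, between 9.46 and 9.96. Cyp6a17, which acts in temperature preference, spanned 7.55 on null 3 to 10.20 on null 2.

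Members known for insecticide breakdown covered the whole scale. Cyp6g1, whose overproduction gives resistance to DDT, read 7.71, 9.75, 9.93 and 7.67 on null arrays and 7.94, 9.09, 8.46 and 8.98 on het arrays. The null arrays fell on both sides of all 4 het arrays. Its neighbour Cyp6g2, which gives resistance when overproduced, stayed below background everywhere, at 3.86 to 4.31. Cyp6w1 lay between 6.12 and 6.87, and Cyp12a4, linked to resistance to lufenuron, averaged 10.12 ± 0.21 in null and 9.52 ± 0.41 in het ovaries (SD, n = 4 each). Cyp6a8, a gene induced by barbiturates and caffeine, was below background on all arrays, at 4.43 to 5.08. Cyp4e3, which acts against permethrin in Malpighian tubules, was above background on 7 arrays.

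Among hormone enzymes, Cyp18a1, which inactivates ecdysone, read 7.74, 7.50, 8.06 and 7.57 on null arrays and 7.22, 6.93, 7.77 and 7.32 on het arrays. Its null values were mostly above its het values but the labels overlapped (log2 difference null minus het 0.41 ± 0.20 SE, limma unadjusted p = 0.0744). A second Cyp18a1 probe set did not share this lean. It read 6.22, 5.53, 6.84 and 5.87 on null arrays and 6.17, 6.24, 6.49 and 5.99 on het arrays, the null arrays lying on both sides of the het arrays. Cyp6t3, needed for ecdysone synthesis in the larval prothoracic gland, was below background on all arrays (3.09 to 3.40). Cyp303a1, which shapes sensory bristles, and Cyp4d21, a male-biased gene linked to courtship, were also below background, at 3.06 to 3.65 and 2.62 to 2.99. Cyp313a2, Cyp313a3 and Cyp313a5, neighbours on 3R, never exceeded 3.42.

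Several P450 genes varied widely between arrays. Of the 81, 24 (29.6%) spanned at least 2 log2 units over the 8 arrays, against 12% of all genes. Among genes above background on every array the counts were 15 of 45 P450 genes (33.3%), against 13.1% of all such genes. The widest were Cyp4p2 (5.98 units), Cyp12d1-d (4.39), Cyp4ac1 (3.99), Cyp4ad1 (3.29), Cyp6a23 (3.22) and Cyp4p1 (3.12). By clan the wide genes were 13 of 32 in CYP4, 10 of 37 in CYP3, 1 of 8 mitochondrial genes and 0 of 4 in CYP2.

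Many of the highest values fell on 1 array. Null 2 had the highest signal of the 8 arrays for 32 P450 genes (39.5%), against 12.7% of all genes, and 63 of the 81 were above background there, against 51 to 60 on the other arrays. Cyp4ac1 stood at 8.73 on null 2, with 4.99, 6.73 and 5.16 on the other null arrays and 5.93, 4.74, 5.31 and 4.94 on het arrays. Cyp4ad1 and Cyp28d1 had the same shape, with 7.88 and 9.38 on null 2 and next highest values of 6.27 and 7.73. Cyp6d5 reached 10.19 on null 2 and 9.49 on null 3, while its other 6 values lay between 7.36 and 7.95.

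The same array had the highest mean over markers of midgut, a tissue rich in detoxifying enzymes. The mean over 16 midgut markers was 6.69, 9.37, 8.40 and 6.77 on null arrays and 7.78, 5.84, 6.50 and 6.06 on het arrays. Over the 81 P450 genes it was 6.49, 7.09, 6.73 and 6.37 on null arrays and 6.30, 6.60, 6.27 and 6.42 on het arrays. Het 2 was thus lowest for midgut markers but above null 1 and null 4 for the P450 genes, and het 1 was the reverse against the same arrays. Single markers differed, and Jon65Ai (5.11) and Jon99Fi (6.86) read lower on null 2 than on null 1, null 4 or het 1. All 16 were higher in null than in het ovaries by their means, 4 of them passing the call rule given below, and 8 of the 16 were above background on every array. Oenocyte markers averaged 8.94 on null 2 and 7.05 to 8.36 elsewhere, and Malpighian tubule markers lay between 7.86 and 8.81 on all arrays. The part of attached gut or other tissue in the P450 signals was not tested.

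**Figure D2:**
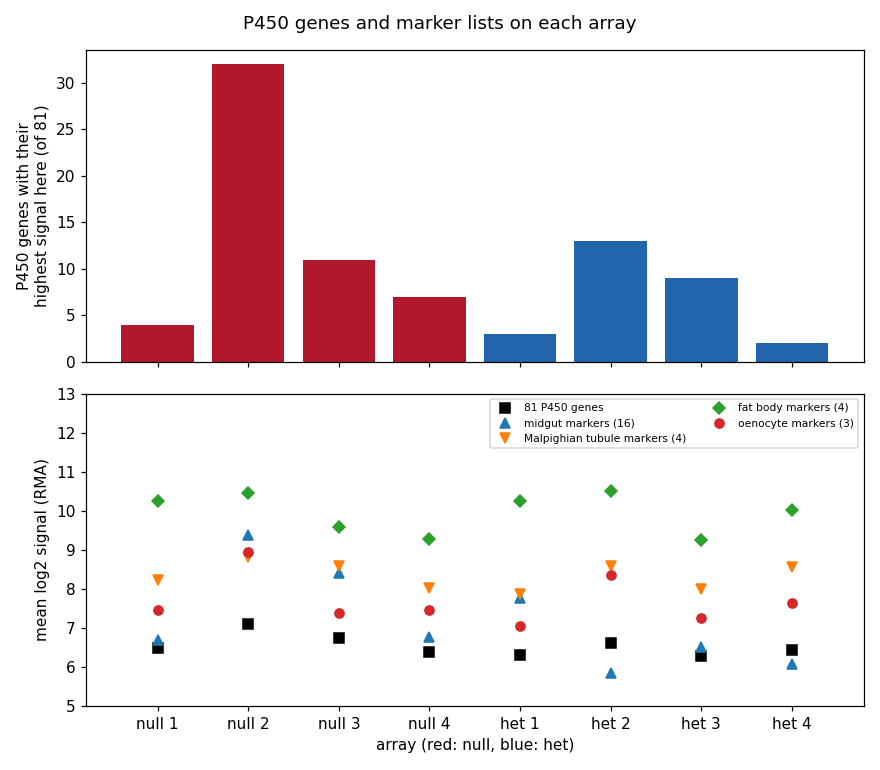
Upper panel: number of the 81 P450 genes that had their highest signal on each array (red bars null, blue bars het). Lower panel: mean log2 RMA signal of the 81 P450 genes and of 4 marker lists on each array, with the number of markers in brackets. Null 2 carried the maximum of 32 genes and the highest midgut marker mean, 9.37.

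Null and het ovaries were compared with limma over all probe sets, and a gene was called at a fold of at least 2 with an unadjusted p under 0.05, the thresholds of the study. Of the 81 P450 genes 59 were higher and 22 lower in null ovaries by their means, with a median log2 difference of 0.15, against 0.005 over all genes. Only Cyp28a5 and Cyp9b2 were called higher (2 of 81, against 0.175% of all genes) and 0 were called lower (0.0167% of all genes). At an unadjusted p under 0.05 there were 5 of 81 P450 genes and 250 of all 11982 genes, and at an adjusted p under 0.05 there were 0 of any kind by limma. A plain test without moderation called 1 P450 gene, and the fit with the background as a block called 3, of which 2 were higher and 1, Cyp12d1-d, lower. The share of all genes called was not counted for these fits, so their counts are not by themselves a result about the P450 genes.

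Cyp28a5, of a family induced by toxic cactus alkaloids in other Drosophila species, read 8.40, 8.44, 7.01 and 7.41 on null arrays and 7.51, 6.68, 5.99 and 6.19 on het arrays. In both backgrounds each null array exceeded each het array, while the 2 labels overlapped when the backgrounds were pooled. The log2 difference null minus het was 1.22 ± 0.44 (SE, limma unadjusted p = 0.0234, adjusted p = 1, exact two-sided permutation p = 0.0857). Neither the main limma fit nor the permutation tests between null and het took account of background. The call was lost when het 3, het 4, null 1 or null 2 was left out, with differences of 1.01 to 1.53 over all single omissions.

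Cyp9b2 read 6.95, 8.89, 7.29 and 8.26 on null arrays and 7.37, 5.86, 6.64 and 6.43 on het arrays. Only het 1 reached into the null values. The difference was 1.27 ± 0.48 (SE, limma unadjusted p = 0.0291, adjusted p = 1, exact permutation p = 0.0857), and the call was lost without het 2, het 3, het 4, null 2 or null 4. Its tandem neighbour Cyp9b1 differed by 0.04.

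Cyp6a2, which breaks down DDT and is induced by barbiturates, read 7.67, 7.92, 8.06 and 6.10 on null arrays and 6.19, 6.68, 6.24 and 6.75 on het arrays. Here 3 null arrays lay above all het arrays and null 4 lay below them. The difference of 0.97 ± 0.42 (SE, limma unadjusted p = 0.0498) was just under 2-fold, so the gene was not called. Cyp4ac1 (1.17) and Cyp6d5 (1.07) passed 2-fold without passing the p threshold, and in both null 2 and null 3 were the highest arrays.

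**Figure D3:**
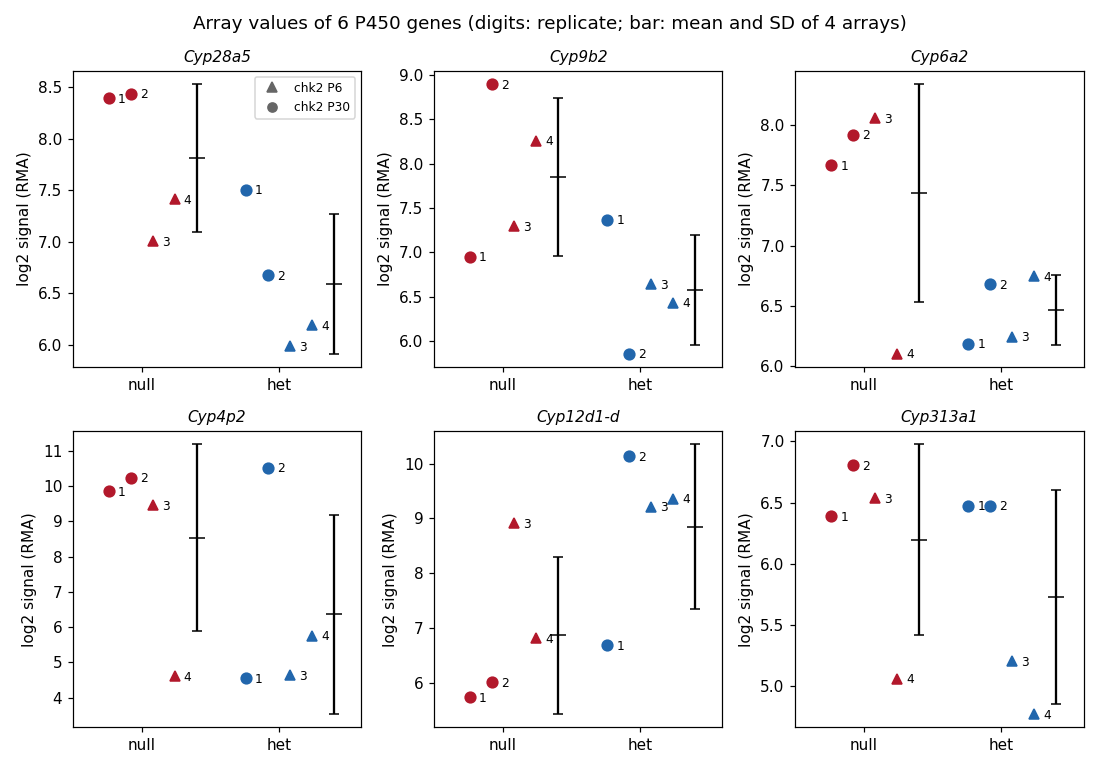
Log2 RMA signals of 6 P450 genes on the 4 null (red) and 4 het (blue) arrays. Triangles are chk2 P6 and circles chk2 P30, digits are replicate numbers, and the bar beside each group is its mean and SD. At Cyp4p2 the arrays null 4 (4.61) and het 2 (10.53) lie with the other label, and at Cyp28a5 the P6 arrays lie below the P30 arrays of the same label.

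The largest difference by size was at Cyp4p2, a CYP4 gene of chromosome arm 2R. It read 9.86, 10.24, 9.47 and 4.61 on null arrays and 4.54, 10.53, 4.63 and 5.76 on het arrays. The gene was thus near 10 on 4 arrays and near or below 5.76 on the other 4, with null 4 on the low side and het 2 on the high side. The difference was 2.18 ± 1.69 (SE, limma unadjusted p = 0.234). Of its 2R neighbours, Cyp4p1 was highest on the same 4 arrays without a clear gap above null 4, while Cyp4p3 did not share the split. Cyp4p1 read 7.78, 9.38, 7.57 and 7.53 on null arrays and 6.47, 8.92, 6.26 and 6.92 on het arrays, and Cyp4p3 read 5.09, 6.94, 5.29 and 6.82 on null arrays and 5.14, 7.20, 6.20 and 6.47 on het arrays. All 3 genes had one of their high values on het 2, the array with low Ote.

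In the other direction stood Cyp12d1-d, a mitochondrial P450 gene induced by caffeine and barbiturates. It read 5.75, 6.02, 8.91 and 6.81 on null arrays and 6.69, 10.14, 9.21 and 9.36 on het arrays. Null 3 lay among the het arrays and het 1 among the null arrays. The difference was -1.98 ± 0.91 (SE, limma unadjusted p = 0.0614, exact permutation p = 0.0857), and it was the only P450 gene lower by 2-fold. It was called with the background as a block. The near-identical Cyp12d1-p differs between fly strains in being present as a second copy, and the probe set that names both genes lay between 9.15 and 10.07 on all 8 arrays. The probe sets thus disagreed, and the Cyp12d1-d value is uncertain to that extent.

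Cyp4aa1 was the only P450 gene whose null and het arrays did not overlap, with 4.37, 4.98, 4.50 and 4.73 on null arrays and 4.27, 4.13, 4.29 and 4.27 on het arrays. All of these values lay below the background level. The difference was 0.41 ± 0.14 (SE, exact permutation p = 0.0286, the smallest that 4 against 4 arrays allow). One non-overlapping gene of 81 stands against 0.684% of all genes that did not overlap with null higher, and 0 of 81 against 0.734% with null lower.

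Without the arrays labelled het 2 and null 4, 7 P450 genes were called higher, against 0.785% of all genes, and 0 lower, against 0.159%. They were Cyp28a5, Cyp313a1, Cyp4p1, Cyp4p2, Cyp6a2, Cyp6a21 and Cyp6a23. Cyp4p2 then differed by 4.87 ± 0.38 (SE), which is not an exact fold since het 1 and het 3 lay below background. Cyp6a2 differed by 1.49 ± 0.19 (SE), while Cyp9b2 was no longer called at 0.90. Since values of some of these genes set the 2 arrays apart, these counts are a description. With both arrays out, 64 of 81 P450 genes were higher in null ovaries and the median difference was 0.32, against -0.01 over all genes. The midgut markers kept a median difference of 1.35 (1.38 with all arrays). Malpighian tubule (0.38), hemocyte (0.32), muscle (0.25), fat body (0.24) and oenocyte markers (0.09) also had medians above 0 without the 2 arrays. Germline (-0.36), follicle cell (-0.35), salivary gland (-0.46) and neuron markers (-0.16) had medians below 0. A lean towards null was thus not particular to midgut among these lists, and its link to the P450 genes was not tested.

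Within the chk2 P30 background, 2 null against 2 het arrays, Cyp28a5 (1.32 ± 0.30 SE) and Cyp301a1 (1.11 ± 0.34 SE) were called higher by limma, against 0.284% of all genes, and 0 lower, against 0.0417%. Cyp301a1, a mitochondrial P450 that acts in forming the adult cuticle, read 7.06 and 6.86 on the P30 null arrays and 5.57 and 6.13 on the P30 het arrays. Within P6 it read 6.69 and 5.84 on null and 5.97 and 6.31 on het arrays, and its difference there was 0.13. Within P6 only Cyp28a5 was called higher (1.12 ± 0.30 SE), against 0.234% of all genes, and 0 were called lower, against 0.0918%. With all arrays Cyp28a5 was thus the only P450 gene called in both backgrounds, from different arrays but with 1 estimate of the spread for the 4 groups. Without het 2 and null 4 its differences were under 2-fold, at 0.92 in P6 and 0.91 in P30. Those of Cyp4p2 were then 4.27 and 5.50 and those of Cyp6a2 1.56 and 1.61. Values of such genes had set the 2 arrays apart, so these differences are a description and not agreement between backgrounds. Without the 2 arrays the P6 null group and the P30 het group held 1 array each, which was assumed to vary like the other groups.

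The difference between the 2 effects was tested itself, as the effect in P6 minus that in P30. By limma 0 of 81 P450 genes were called positive (0.025% of all genes) and 0 negative (0.342%), with 1 gene at an unadjusted p under 0.05, Cyp303a1, whose signals were all below background. For Cyp301a1 the difference of effects was -0.98 ± 0.48 (SE, limma unadjusted p = 0.0901), so its call in P30 alone is not shown to differ from P6. After cyclic loess scaling 1 gene was called, with the share over all genes not counted.

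**Figure D4:**
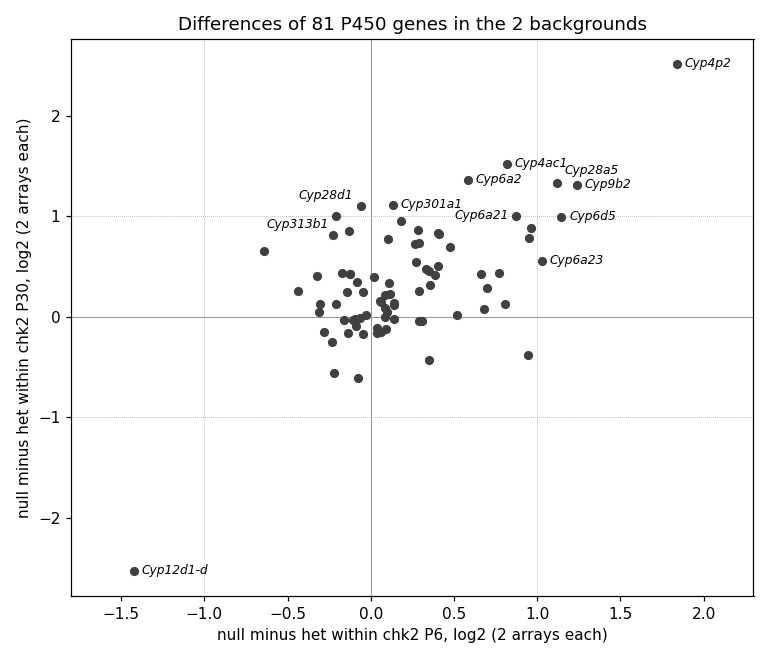
Log2 difference null minus het of the 81 P450 genes within chk2 P6 (horizontal axis) and within chk2 P30 (vertical axis), each from 2 null and 2 het arrays. Each point is a gene, dotted lines mark 2-fold, and genes at 2-fold or more in either background are named. Cyp4p2 (1.84 and 2.51) and Cyp12d1-d (-1.42 and -2.53) lie farthest out without being called, and Cyp28a5 (1.12 and 1.32) was called in both.

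The P6 and P30 backgrounds were compared in a fit that kept the genotype label. P450 genes were lower in P6 for 52 of 81 and higher for 29, with a median log2 difference of -0.10 (-0.01 over all genes). The calls were 0 higher, against 1.43% of all genes, and 2 lower, against 0.609%. Several marker lists of other tissues leaned the same way, with 4 of 4 fat body markers lower in P6 (median -0.86), 12 of 16 midgut markers (-0.50) and 5 of 6 muscle markers (-0.35). Salivary gland markers were lower for 6 of 6 (-2.65), but their mean was high only on het 1 (10.04) and null 1 (9.32). On the other P30 arrays, het 2 (4.55) and null 2 (4.45), it lay in the range of the P6 arrays (4.32 to 5.52). With all arrays 0 of these markers were called. Their part in the P450 differences was not tested. Without het 2 and null 4 the P450 median turned to 0.04, with 1 gene called higher (2.74% of all genes) and 1 lower (0.985%). The medians of fat body (-0.65), midgut (-0.63), muscle (-0.14) and salivary gland markers (-4.17) stayed below 0, so these lists and the P450 genes no longer leaned the same way.

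Cyp28a5 was called lower in P6, at 7.01 and 7.41 on P6 null arrays and 5.99 and 6.19 on P6 het arrays, against 8.40 and 8.44 on P30 null and 7.51 and 6.68 on P30 het arrays. Within each label both P6 values lay below both P30 values. The difference P6 minus P30 was -1.11 ± 0.20 (SE, limma unadjusted p = 0.000888, adjusted p = 0.512), and -1.42 without het 2 and null 4. Only the omission of het 1 took the difference under 2-fold and ended this call. An exact permutation over the 8 arrays, which takes no account of label, gave p = 0.114.

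Cyp313a1 was called lower in P6 as well, at 6.53 and 5.06 on P6 null arrays and 5.21 and 4.77 on P6 het arrays, against 6.39 and 6.81 on P30 null and 6.47 and 6.47 on P30 het arrays. Null 3 alone among the P6 arrays lay in the P30 range, and null 4, het 3 and het 4 lay below the background level, so the difference is not an exact fold. The difference was -1.14 ± 0.34 (SE, limma unadjusted p = 0.0119), and the call was lost without het 4, without null 4, and at -0.77 without both het 2 and null 4. Follicle cell markers also differed, higher in P6 for 7 of 7 with 3 called by limma, their mean lying between 11.70 and 12.55 on P6 arrays and between 9.90 and 11.59 on P30 arrays. The part of egg chamber stage in the P450 differences was not tested.

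Other P450 genes passed 2-fold between backgrounds without a call. These were Cyp4p2 (-2.68 ± 1.49 SE), Cyp6a23 (-1.21 ± 0.58), Cyp4p1 (-1.07 ± 0.57) and Cyp12d1-d (1.43 ± 0.80). Without het 2 and null 4 the first 3 were under 2-fold, at 0.04 for Cyp4p2, -0.65 for Cyp6a23 and -0.45 for Cyp4p1. Cyp12d1-d then differed by 2.81 ± 0.16 (SE), with 8.91 on the P6 null array and 9.21 and 9.36 on the P6 het arrays, against 5.75 and 6.02 on P30 null and 6.69 on P30 het. Cyp6g2 did not overlap between backgrounds with P6 higher (1 of 81, against 3.2% of all genes) and Cyp313a2 did not with P6 lower (1 of 81, against 2.97%). Both lay below background and differed by 0.27 and -0.12.

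Many P450 genes stand next to each other as products of tandem duplication. In the reference gene order 41 of the genes lay in 14 runs of adjacent Cyp genes, and the longest held 9 on 2R, in the order Cyp6a22, Cyp6a17, Cyp6a23, Cyp6a19, Cyp6a9, Cyp6a20, Cyp6a21, Cyp6a8 and Cyp317a1. Neighbours in this run differed in where they were high. Cyp6a23, the duplicate next to Cyp6a17, read 8.43, 10.63, 8.68 and 8.44 on null arrays and 7.98, 9.99, 7.41 and 7.65 on het arrays, so null 2 and het 2 stood apart. Cyp6a22 instead was highest on null 4 (8.74) and lowest on het 2 (6.23). Cyp6a20, which affects aggression between males, was highest on null 4 (7.98) and lowest on null 3 (6.50). Cyp6a21 was above background only on null 2 (6.67) and null 3 (6.22), and Cyp6a8 and Cyp317a1 at the end of the run on none. Cross-hybridisation among such close copies was not tested.

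**Figure D5:**
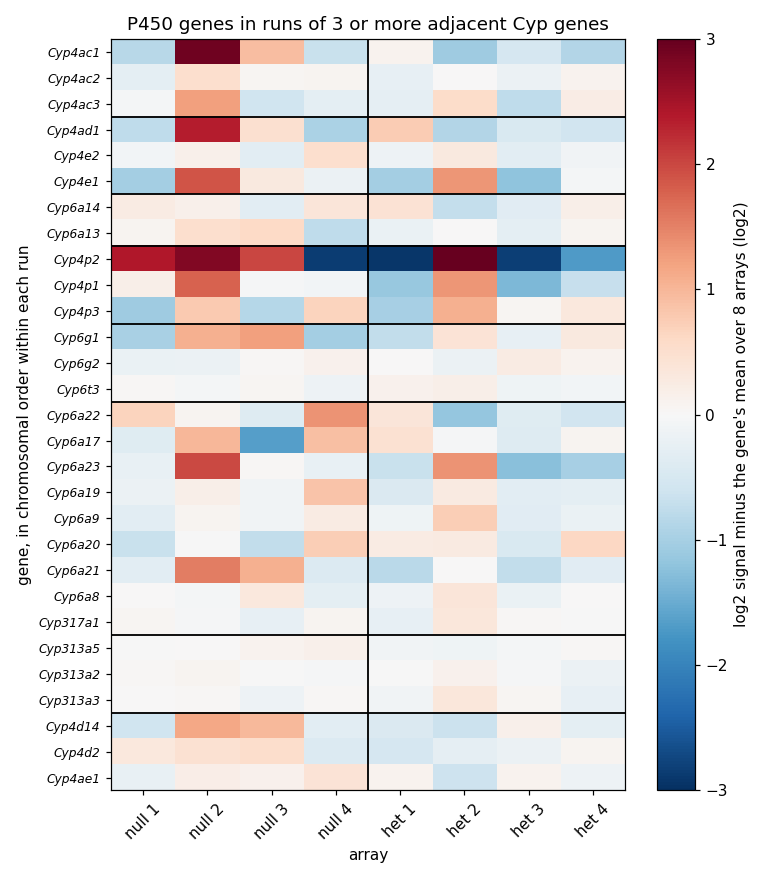
Log2 RMA signal of each P450 gene minus its own mean over the 8 arrays, for runs of at least 3 adjacent Cyp genes in the reference order (black lines between runs, columns for null 1 to 4 and then het 1 to 4). Red is above and blue below the gene's mean, and the colours end at -3 and 3. Cyp4p2 changes most, its neighbour Cyp4p1 is highest on the same 4 arrays over a smaller range, and Cyp4p3 has another pattern.

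On chromosome 2, which differs between null and het through the balancer, 5 of 46 P450 genes differed by 2-fold or more (10.9%), against 1.9% of all genes of that chromosome. Elsewhere it was 1 of 35 P450 genes (2.86%), against 1.17% of other genes. Both genes called between null and het lay on chromosome 2, as did 12 of the 21 genes called higher among all genes. Effects of ote and of other variants on this chromosome cannot be told apart.

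The other genes of P450 biology were taken from fixed lists. Of the P450 genes of ecdysone synthesis that carry their own names, dib and sad, which act late in the pathway, and spo, the early-acting copy used in ovary and embryo, were above background on every array. The larval copy spok was below background on all arrays (2.77 to 3.31), and shd, which makes the active hormone, exceeded it on 1 array. Between null and het ovaries 2 of these 5 were higher and 3 lower, with 0 called by limma in either comparison (phm was not measured by a probe set of its own). spo read 8.75, 7.94, 7.88 and 9.28 on null arrays and 9.03, 8.94, 8.91 and 8.56 on het arrays, the null arrays lying on both sides of the het arrays. Of the other ecdysone genes nvd, the enzyme of the first step, was called lower in P6 (-1.13 ± 0.33 SE, limma unadjusted p = 0.0106), at 7.49 and 8.66 on P6 null and 7.68 and 8.50 on P6 het arrays, against 8.89 and 9.18 on P30 null and 9.02 and 9.76 on P30 het arrays.

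Electron donors (Cyt-b5, Cyt-b5-r, Fdx1 and Fdx2) were above background on all arrays, and 0 of 4 were called in either comparison. The 12 regulators, among them cnc, Hr96 and EcR, had 0 calls with all arrays, with 10 lower in null ovaries by their means and a median of -0.14. With het 2 and null 4 left out, 1 of the 12 was called lower between null and het, against 0.159% of all genes. Heme genes (7 measured) had 0 calls, with 7 higher in null ovaries by their means and a median of 0.06. Of 34 glutathione S-transferase genes, which act beside P450 enzymes in detoxification, 29 were higher and 5 lower in null ovaries. Among them 1 was called higher, GstD2 (1.87 ± 0.38 SE, limma unadjusted p = 0.00118), against 0.175% of all genes. Without het 2 and null 4, left out with the values known, 7 were called higher, against 0.785% of all genes. In P6 against P30, 1 of the 34, GstE6, was called lower (-1.06 ± 0.40 SE), against 0.609% of all genes. That call was lost with het 2 and null 4 left out, where 0 of the 34 were called. Of 35 UDP-glycosyltransferase genes 26 were higher and 9 lower in null ovaries, with 0 called (1 higher without het 2 and null 4, against 0.785% of all genes). Among the 10 marker lists with all arrays, midgut was the only one with calls between null and het (4 higher, against 0.175% of all genes). Follicle cells were the only one with calls between P6 and P30 (3 higher, against 1.43% of all genes). Without het 2 and null 4, 2 midgut markers were called higher between null and het, against 0.785% of all genes. Between P6 and P30 the calls were then 1 higher among follicle cell and 1 higher among oenocyte markers, with 1 lower in midgut, 1 lower in fat body and 2 lower in salivary gland. Over all genes 2.74% were then called higher and 0.985% lower. Salivary gland markers averaged 9.32 on null 1 and 10.04 on het 1 and 4.32 to 5.52 on the other arrays.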

How the data were processed

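Ovary RNA of 8 samples was measured on 1 array each. The deposited values are on a log2 scale and were made by the authors with RMA. The submitters' processing notes give version 1.4.1 of the Expression Console of Affymetrix, while the methods give the company's Transcriptome Analysis Console. The log base was read from the range of values, 2.37 to 14.5. RMA makes arrays share 1 distribution, so a change common to most genes would be hidden, and low signals are compressed. Of 18952 probe sets 183 controls were left out and 18769 were tested without a filter.

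Gene names came from the platform annotation, updated by gene number (13544 of the 13647 probe sets naming 1 gene) through a RefSeq gene table. Comparisons used limma 3.58.1 in R 4.3.3 over all probe sets, with Benjamini-Hochberg adjustment over them, and exact permutation tests over the 70 assignments of arrays for single genes. The fits were checked on simulated data. The P6 minus P30 fit kept the label, and within-background effects came from a fit of 4 groups. Same-numbered null and het arrays correlated in their deviations at -0.0018, 0.38, 0.54 and -0.10, so no pairing was used.

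The members and lists were chosen with earlier results of these data known. Genes were named if called or not overlapping in a comparison, among the 10 brightest, the 6 with the largest difference in each direction or the 6 with the widest range, or of known role. Named beyond that rule, after their values were seen, were genes of the runs and of the array null 2. Alternatives covered the background and the replicate number as blocks, scaling, filter, weights, thresholds and omitted arrays. No sequence was used, and start positions in the gene table served only to order genes along each chromosome.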

Additional observations from a re-analysis of the deposited data

Results flagged for a closer look

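In 8 of the 96 groups of 4 arrays tested (48 named genes), 1 array lay farther from the other 3 than Dixon's 95% critical value allows, and chance alone marks about 1 in 20 such groups. Some of these genes were named for a wide range or a large difference, so their count cannot be set against that rate. Within the null label these were Cyp4p2 on null 4 (4.61), Cyp318a1 on null 4 (7.66), Cyp4p1 on null 2 (9.38), Cyp6a23 on null 2 (10.6) and Cyp49a1 on null 1 (5.62). Within the het label they were Cyp310a1 on het 2 (5.79), Cyp4aa1 on het 2 (4.13) and Cyp311a1 on het 3 (5.13). The arrays null 2, null 4 and het 2 held 2 each of these values.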

How the results depend on the processing

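With the replicate number as a block 2 P450 genes were called between null and het (1 higher and 1 lower, Cyp28a5 and Cyp12d1-d), the same number as without it, where they were Cyp28a5 and Cyp9b2. In the P6 and P30 comparison the block left the count at 2, and null 1 and null 4 did not correlate best with the het array of their own number. The null-het count of 2 became 5 with array weights, 1 without moderation, 4 at 1.5-fold, 0 at 3-fold and 7 without het 2 and null 4. Leaving out single arrays gave 0 to 5, with 0 without het 3, het 4 or null 2, 4 without het 1, het 2 or null 3, and 5 without null 4. Between P6 and P30 the count of 2 became 0 at 3-fold and 1 to 4 with single arrays out (4 without het 1, 1 without het 4 or null 4). Within P30 it was 6 without het 2 and null 4 and 2 to 10 with single arrays out (10 without null 1). Within P6 it was 3 without both and 0 to 5 with single arrays out (5 without null 3). For the difference of the effects it was 1 with cyclic loess, 2 without both and 0 to 7 with single arrays out (7 without null 3). The omissions in these last 3 were chosen after seeing the data. Calls over all genes moved with the settings too. Without het 2 and null 4 they rose from 0.175% to 0.785% higher and from 0.0167% to 0.159% lower between null and het. A changed count is thus not by itself a result about the P450 genes. The share over all genes was counted only with all arrays and without het 2 and null 4, not for the other settings. The count of 45 genes above background became 14 at the 99th percentile, so that count depends on the level chosen, and stayed at 45 or 46 with single arrays out. The median differences of P450 genes stayed at 0.12 to 0.23 (null minus het) and -0.16 to -0.03 (P6 minus P30) with single arrays out. Of 267 values of single genes under alternatives 226 kept their call, 17 lost it, 24 gained it and 0 changed sign. The cause of these shifts was not tested.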
